A study of Arabidopsis thaliana with 12 samples.

Results

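The interaction of bleomycin (BLM) and INA is the amount by which the response of Arabidopsis thaliana seedlings to both agents departed from the sum of the responses to each agent alone. It was computed for each probe set, the group of short probes that measures a transcript on the array, from the 4 group means on the log2 scale: the change with BLM+INA against control, less the change with INA alone and the change with BLM alone. All 12 of the 12 arrays of the study entered it, and 22746 of the 22810 probe sets were tested, since 64 control probe sets were set aside. A value of 0 means that the 2 log2 changes added, which is the same as the folds multiplying, and a value of 1 means that the level with both agents was 2-fold above that product.

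The study held wild-type (WT) whole seedlings from MS agar plates in 4 groups of 3 biological replicates. The control (CK) had no treatment, the INA group received 10 µM INA, which the labels call a low dose, the BLM group received 4 µg/ml bleomycin, and the BLM+INA group received both at these doses. The series title gives synergy of the agents on defence genes as the subject. Seedling age and time under treatment are not given in the sources used here.

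Bleomycin is a glycopeptide that cuts DNA and leaves double-strand breaks, to which plant cells respond by repair and by stopping division. INA (2,6-dichloroisonicotinic acid) is a functional analogue of salicylic acid, the hormone of local and systemic resistance to pathogens that feed on living tissue. Salicylic acid acts largely through the coactivator NPR1 with TGA transcription factors, and many of its late targets are also controlled by WRKY factors.

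Each deposited value is a log2 difference from the median of its own probe set over the 12 arrays, so groups can be compared for a gene but levels cannot be compared between genes. Array medians lay between -0.0208 and 0.0255. The difference between the 3′ and 5′ actin control probe sets, which tracks RNA integrity, had an interaction of 0.18 with a standard error (SE) of 0.376. Of 64 control probe sets, 63 had interactions between -0.396 and 0.184, and the other one had 2.32. Marker genes of green shoot tissue (3 of 7 measured), root (3 of 8) and dividing cells (3 of 5) had interactions between -0.25 and 0.29, and 0 of these 9 passed the threshold. In bulk RNA of whole seedlings a change in the number of cells that express a gene and a change in RNA per cell cannot be told apart.

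Few probe sets had a departure from the sum that passed the threshold. In limma, with Benjamini-Hochberg adjustment over all 22746 probe sets and a threshold of 0.05, 69 probe sets lay above the sum (0.303% of those tested) and 18 below it (0.0791%). The sizes above ran from 0.63 to 2.86 with a median of 1.16, and those below from -2.84 to -0.76 with a median of -1.17. A size of at least 1, that is a 2-fold departure from the product of the single folds, was reached by 51 above and 12 below, and 9 above exceeded 2. At an unadjusted p under 0.05 the counts were 833 above and 865 below, so the excess of upward departures, 79.3% of the calls, was seen among the calls and not in the whole table, where 45.3% of the interactions were above 0 and the median was -0.02. Quantile normalization of the deposited values left 26 above and 19 below, a split of 57.8% above. Leaving out INA replicate 1 gave 44 above and leaving out INA replicate 2 gave 45. Leaving out BLM+INA replicate 2 gave 94 above and 30 below. Over the 12 fits without 1 array, the share of calls that lay above the sum ran from 68.2% to 81.7%.

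**Figure D1:**
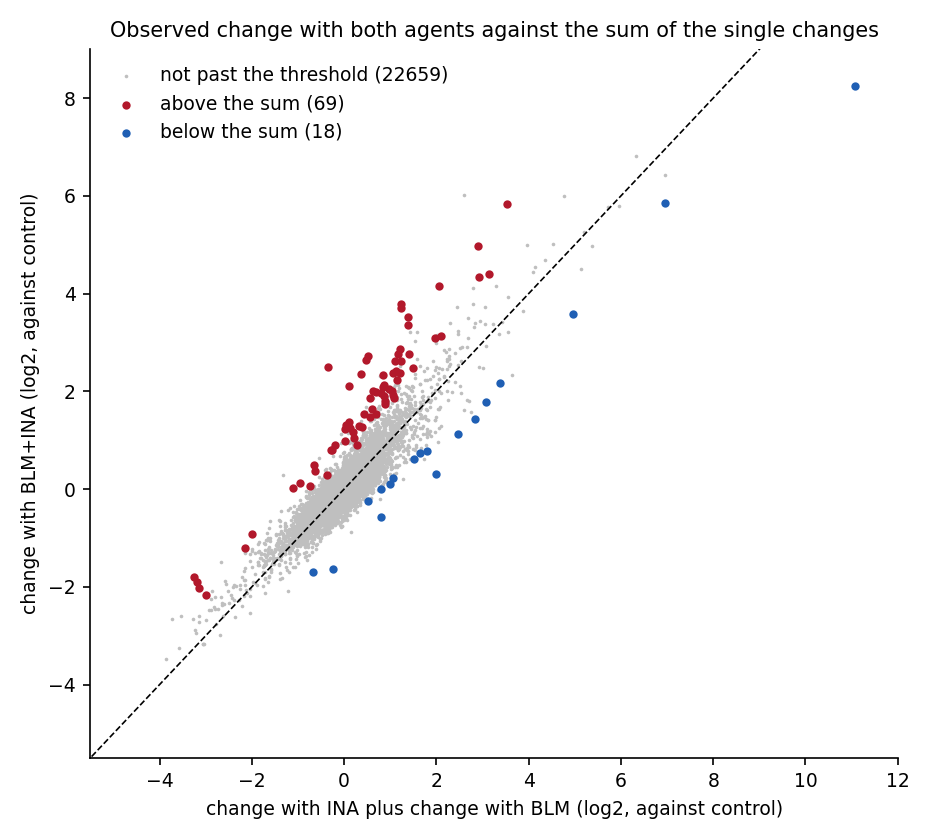
Each point is a probe set: the x axis is the log2 change with INA plus that with BLM, the y axis the log2 change with BLM+INA, both against control, and the dashed line marks equality. The 69 probe sets above the sum (red) lie mainly where the sum is between -1 and 4, and the 18 below it (blue) mainly where the sum is positive.

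An interaction rests on 4 group means and is therefore less precise than a comparison of a pair of groups. Its median SE was 0.163, against 0.115 for a single agent against control. The gene table paired 39 of the 87 probe sets with exactly 1 gene (29 above, 10 below) and 2 with several, and 46 were not in it. The 39 genes carry a symbol or locus in what follows, and of the other 48 probe sets a few are given by probe set name.

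The calls came from responses of very different size. INA raised 207 probe sets (0.91%) and lowered 57 (0.251%), BLM raised 1905 (8.38%) and lowered 1885 (8.29%), and both agents raised 2538 (11.2%) and lowered 2509 (11.0%) against control. Set against BLM alone, BLM+INA was higher in 783 (3.44%) and lower in 538 (2.37%), and set against INA alone it was higher in 2108 (9.27%) and lower in 2166 (9.52%). These comparisons share groups with the interaction and are used here only to describe the shape of each profile. Of the 69 above the sum, 59 were raised with both agents against control, 64 were higher than with BLM and 58 were higher than with each single agent. The 3 BLM+INA arrays lay above the 9 other arrays in 57 of the 69, and did so in 4.79% of all probe sets tested. Since the 69 were chosen by their values on these same arrays, this separation describes them and is no further evidence.

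The 69 fell into 5 shapes. Of these, 22 were raised only by both agents, 20 by 1 single agent and by both, and 12 by each agent and by both. Another 9 fell with BLM alone and not with both. The remaining 6 fell with BLM and with both agents, but by less with both than the single falls add up to. Among the 18 below the sum, 15 were blunted rises, raised by each single agent or lower with both than with the agent that raised them, and 2 were lowered only by both. The remaining one, AT3G18560, was also a rise with BLM below the sum, but its difference between BLM+INA and BLM missed the threshold (limma adjusted p = 0.0722). The shapes rest on p values adjusted per contrast, and the cut-off was stricter for INA, which had fewer calls than BLM. A change of 0.47 with INA (SE 0.133) in AT1G66880 was not called (limma adjusted p = 0.14). One of 0.40 with BLM (SE 0.128) in AT1G10340 was called (limma adjusted p = 0.0409). The split between shapes depends in part on these cut-offs.

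**Figure D2:**
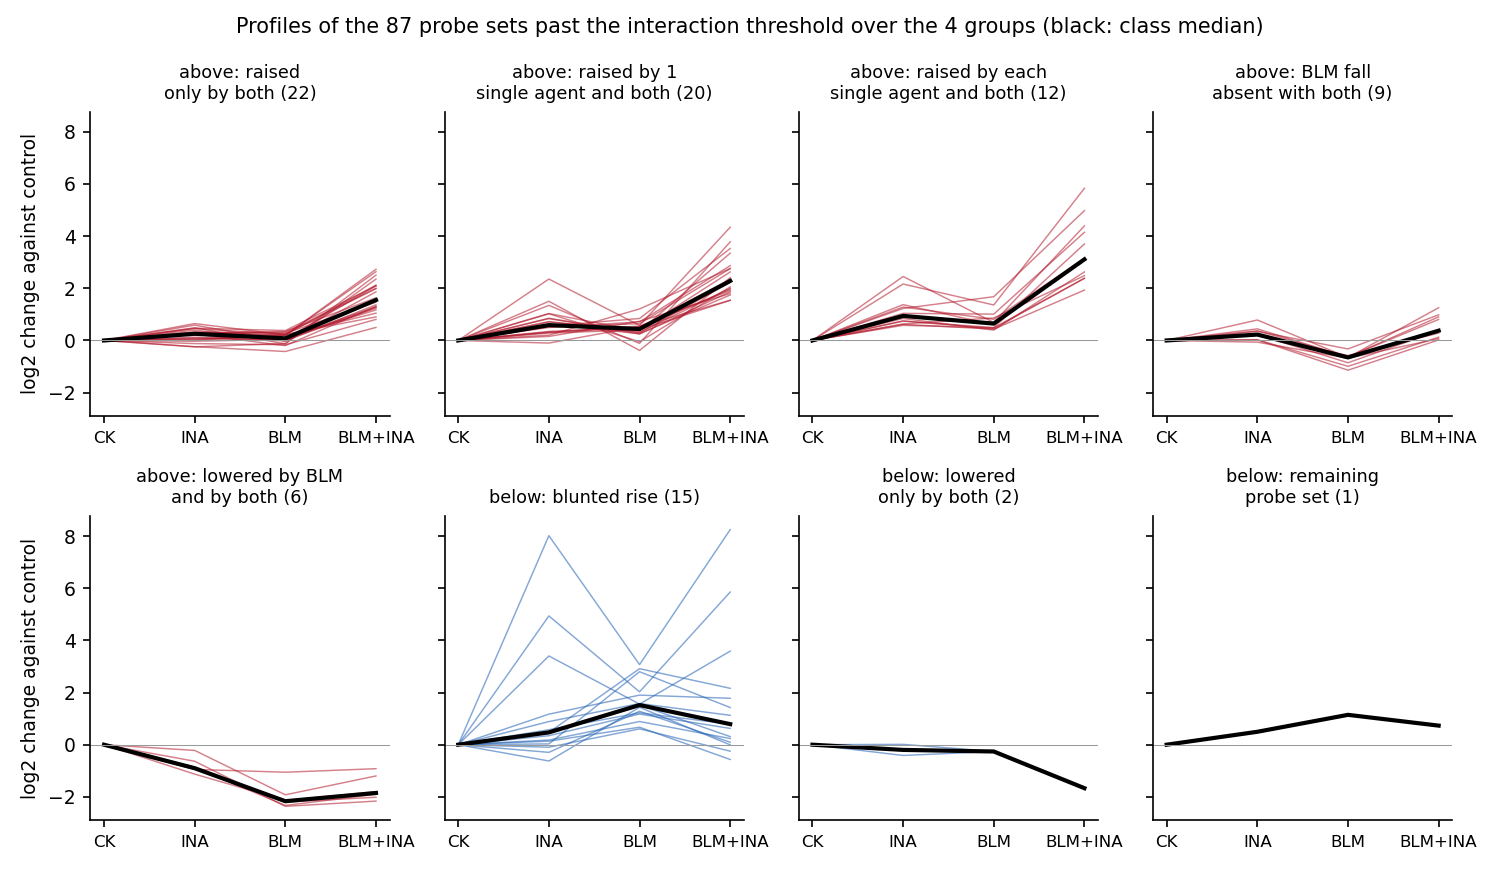
Each thin line is 1 of the 87 probe sets past the interaction threshold, with its log2 change against control on the y axis in the 4 groups on the x axis, and the black line is the median of its class. In the 22 probe sets raised only by both agents the median change was 0.25 with INA, 0.08 with BLM and 1.55 with both, whereas in the 15 blunted rises it was 0.47, 1.52 and 0.79.

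Genes raised only by both agents had single changes that did not pass the threshold, which does not show them to be absent. The class medians were 0.25 for INA and 0.08 for BLM. The largest among those with 1 gene were AT5G18470, a curculin-like lectin, AT3G09020, a member of the alpha-1,4-glycosyltransferase family, AT5G44820, of the nucleotide-diphospho-sugar transferase family, and GLR1.4, a glutamate receptor-like channel. AT3G09020 measured -0.06, -0.12 and -0.05 in control, -0.09, -0.17 and 0.22 with INA, 0.05, -0.21 and 0.06 with BLM, and 2.14, 1.74 and 2.19 with both, replicates 1 to 3 each. The first 3 groups overlapped and the 3 BLM+INA arrays stood well apart above them. The fold against control was 1.04 for INA, 1.03 for BLM and 4.29 for both, and the interaction was 2.0 (SE 0.184, limma adjusted p = 3.02e-05).

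GLR1.4 did not exceed 0.11 on any of the 9 arrays without both agents and measured 1.4, 1.03 and 1.23 with both. Its interaction was 1.26 (SE 0.187, limma adjusted p = 0.00304). AT5G18470 measured -0.50, -0.29 and -0.09 in control, -0.02, 0.23 and 0.38 with INA, -0.88, -0.41 and 0.02 with BLM, and 2.16, 1.74 and 2.29 with both. Its single-agent groups overlapped and the BLM+INA arrays did not, and the interaction was 2.0 (SE 0.269, limma adjusted p = 0.00139). The pseudogene AT5G55420 was likewise flat in 3 groups, with values from -0.24 to 0.04, and reached 1.09, 1.10 and 1.29 with both agents (interaction 1.22, SE 0.148, limma adjusted p = 0.000773). In the protein kinase gene AT1G66880 all 6 single-agent arrays lay above the 3 of control, with folds of 1.39 and 1.30 for the single agents and 4.25 for both, and an interaction of 1.24 (SE 0.188, limma adjusted p = 0.00398).

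Others of this shape were less secure. AT5G44820 measured -0.03, 0.36 and 0.81 with INA, so that INA replicate 3 lay high. Its call (1.30, SE 0.252, limma adjusted p = 0.0262) was lost in 8 of the 12 fits that left out 1 array, with values from 1.10 to 1.52. The fit without INA replicate 3 kept the call. A second probe set of AT5G44820 had an interaction of 0.67 (SE 0.197) with an adjusted p of 0.266 in limma. There INA alone gave a fold of 1.8, which passed the threshold (limma adjusted p = 0.00245), and both agents 3.52. By that probe set, which is in a higher class of signal (4 to 8 against 2 to 4), the gene was not raised only by both agents. CYP71B23, a cytochrome P450, had an interaction of 0.98 (SE 0.188) and lost its call in 7 of the 12 fits, within 0.86 to 1.10. Quantile normalization ended the calls of AT5G18470, AT5G44820, AT1G66880 and CYP71B23 and left those of AT3G09020, GLR1.4 and AT5G55420. As a class, the 22 numbered 6 after quantile normalization, 13 without BLM+INA replicate 1 and 35 without BLM+INA replicate 2.

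By the calls against control alone, 1133 probe sets were raised with both agents and with neither agent alone, and only 22 of them were called above the sum. For the rest the departure from the sum did not pass the threshold, although the change with both agents did and the single changes did not.

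The next shape was a small rise with 1 agent and a large one with both, in 20 probe sets, 10 of them with INA as the single agent and 10 with BLM. WRKY53, a WRKY transcription factor of senescence and defence, measured -0.67, -0.72 and -0.76 in control, -0.23, -0.19 and -0.06 with INA, 0.06, 0.18 and 0.15 with BLM, and 2.59, 2.39 and 3.46 with both. The 4 groups did not overlap, and the step from either single agent to both was several times the step from control. The folds against control were 1.47, 1.79 and 11.5, while the product of the single folds was 2.63. The interaction was 2.13 (SE 0.261, 95% interval 1.58 to 2.68, limma adjusted p = 0.000773), and it stayed between 1.81 and 2.34 without any 1 array. The difference of INA from control did not itself pass the threshold for this gene (limma adjusted p = 0.285).

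AT1G24140, of the matrix metalloprotease family, was the most even gene of this shape. It measured -0.42, -0.34 and -0.45 in control, 0.03, -0.11 and -0.08 with INA, 0.08, -0.03 and 0.24 with BLM, and 1.81, 1.91 and 2.09 with both. The single agents overlapped each other, both lay above control, and the observed fold of 5.06 compares with a product of 1.8. Its interaction was 1.49 (SE 0.146, limma adjusted p = 5.36e-05). The pseudogene AT3G48650 had folds of 1.63 with INA, 1.31 with BLM and 6.17 with both (interaction 1.53, SE 0.196, limma adjusted p = 0.000938).

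AT5G55450, of the lipid transfer protein family, responded strongly to INA alone. It measured -1.65, -1.60 and -1.16 in control, 0.90, 0.61 and 1.13 with INA, -1.43, -0.64 and -0.61 with BLM, and 3.07, 2.72 and 2.82 with both. BLM overlapped control, INA lay above both, and BLM+INA lay above INA, so BLM raised the level 3.96-fold when INA was present and 1.49-fold when it was not. The interaction was 1.41 (SE 0.275, limma adjusted p = 0.0274), and its call was lost in 6 of the 12 fits without 1 array, with values from 1.14 to 1.55, and after quantile normalization. AT5G59670, a leucine-rich repeat receptor kinase, was raised 2.03-fold by INA, was 0.968-fold of control with BLM and reached 4.15-fold with both. Its interaction of 1.08 (SE 0.203) lost the call in 5 of the 12 fits, within 0.97 to 1.28, and after quantile normalization.

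AT3G60420, of the phosphoglycerate mutase family, was raised 1.64-fold by BLM and 7.29-fold by both, with an interaction of 1.66 (SE 0.297, limma adjusted p = 0.013). The call was lost without CK replicate 3 (1.54), without BLM+INA replicate 1 (1.49), and without INA replicate 1 (1.60) or 2 (1.49), and after quantile normalization. Another probe set of the same gene, in the lowest class of signal, had an interaction of -0.07 (SE 0.145), so the gene's probe sets disagreed. AT1G78410, a VQ motif protein, a family whose members bind WRKY factors, rose 1.39-fold with BLM and 3.90-fold with both. Its interaction of 1.18 (SE 0.208) lost the call without INA replicate 1 (1.09) and after quantile normalization.

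**Figure D3:**
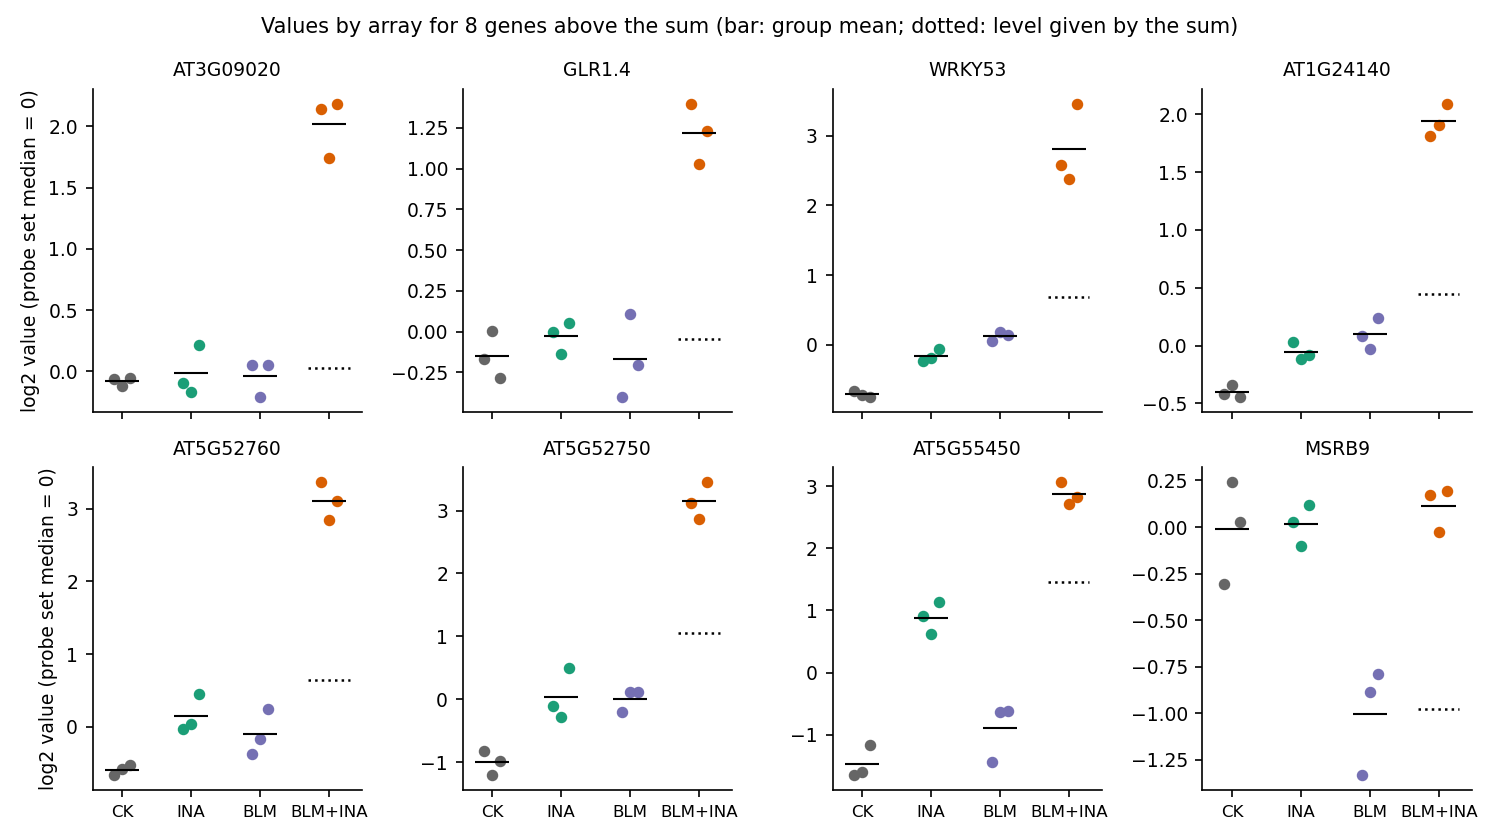
Log2 values of the 12 arrays on the y axis, by group on the x axis, for 8 genes above the sum; each point is an array, the solid bar is the group mean, and the dotted bar is the level that the sum of the single changes gives for BLM+INA. The 3 BLM+INA arrays of each gene lie above the dotted bar, and MSRB9 alone of the 8 returns to the level of control.

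Among the 12 probe sets raised by each single agent, the neighbouring heavy-metal-domain genes AT5G52760 and AT5G52750 had the largest interactions of the genes with a name. AT5G52760 measured -0.67, -0.59 and -0.53 in control, -0.04, 0.04 and 0.45 with INA, -0.37, -0.17 and 0.24 with BLM, and 3.37, 2.85 and 3.10 with both. The single-agent groups overlapped, lay above control, and were far below BLM+INA. Folds were 1.67 for INA, 1.41 for BLM and 13.0 for both, which is 5.51 times the product, and the interaction was 2.46 (SE 0.227, limma adjusted p = 3.02e-05).

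AT5G52750 measured -0.82, -1.21 and -0.98 in control, -0.11, -0.28 and 0.50 with INA, -0.21, 0.12 and 0.11 with BLM, and 3.12, 2.86 and 3.46 with both. It followed the order of AT5G52760, with each agent alone near a 2-fold rise (2.05 and 2.01) and 17.7-fold with both. Its interaction was 2.10 (SE 0.257, limma adjusted p = 0.000773), and its call was lost only after quantile normalization among the settings run for single genes. AT5G52740, which RefSeq places next to AT5G52750, was raised 1.69 on the log2 scale by both agents and had an interaction of 1.21 (SE 0.263) that missed the threshold (limma adjusted p = 0.0594). The genes on the other side, AT5G52770 and AT5G52780, had interactions of 0.03 (SE 0.139) and 0.30 (SE 0.16). Among calls paired with a single gene, the only others within 5 genes of each other were AT5G55450 and the pseudogene AT5G55420, which are 3 genes apart. Called probe sets without a single gene had no position and could not be searched.

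AT1G35710, a leucine-rich repeat receptor kinase, had the highest fold of the named genes above the sum. It measured -1.71, -1.85 and -1.46 in control, 0.98, 0.63 and 0.72 with INA, -1.43, -0.63 and -0.89 with BLM, and 2.80, 2.67 and 2.69 with both. The 4 groups were ordered without overlap, and the fold of 21.0 with both compares with 5.47, 1.61 and a product of 8.82. Its interaction of 1.25 (SE 0.228, limma adjusted p = 0.0153) lost the call in 3 of the 12 fits, those that left out CK replicate 3 (1.14), INA replicate 2 (1.18) and BLM+INA replicate 1 (1.21), and after quantile normalization. AT1G10340, an ankyrin repeat protein, rose 1.79-fold with INA, 1.32-fold with BLM and 6.18-fold with both (interaction 1.39, SE 0.181, limma adjusted p = 0.00102), and its call was lost after quantile normalization only. The pseudogene AT2G24160 rose 1.5-fold, 1.4-fold and 5.22-fold, with an interaction of 1.32 (SE 0.186, limma adjusted p = 0.00195).

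The rule for named genes left out 5 genes above the sum, which are added here after their values were seen. AT3G47480 (1.05) and AT3G01830 (0.91) encode calcium-binding EF-hand proteins, AT2G26190 (0.89) a calmodulin-binding protein and AT4G11000 (0.88) an ankyrin repeat protein, and AT1G13470 had the smallest size of the 5 (0.78). With both agents they reached 3.76-fold, 2.77-fold, 2.42-fold, 3.81-fold and 3.64-fold of control, and the 3 BLM+INA arrays of each lay above its 9 other arrays. Their adjusted p values in limma ran from 0.0092 for AT3G01830 to 0.0432 for AT2G26190. AT3G01830 kept its call in the 12 fits without 1 array, whereas AT3G47480, AT2G26190 and AT1G13470 each lost it in 9 and AT4G11000 in 8, with values over these 4 genes from 0.68 to 1.17. Quantile normalization ended the calls of all 5.

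Upward departure also came from falls that did not occur or did not add. MSRB9, a methionine sulfoxide reductase that repairs oxidised methionine in proteins, measured -0.31, 0.24 and 0.03 in control, 0.02, -0.10 and 0.12 with INA, -1.33, -0.89 and -0.79 with BLM, and 0.17, -0.02 and 0.19 with both. The BLM arrays stood alone below the other 9, among which the groups overlapped. BLM lowered it to 0.503-fold of control (limma adjusted p = 0.000113), and with both agents it was at 1.09-fold (limma adjusted p = 0.633). AT1G17430, of the alpha/beta hydrolase family, was at 0.553-fold with BLM and 1.30-fold with both, and AT4G29520 at 0.624-fold and 1.05-fold. The interactions of the 3 genes were 1.09 (SE 0.209), 1.0 (SE 0.20) and 0.81 (SE 0.163), with adjusted p values in limma from 0.0245 to 0.0357. Their calls were lost in 7, 8 and 9 of the 12 fits without 1 array and after quantile normalization, and that of AT1G17430 also on the linear scale. All 9 probe sets of this shape fell with BLM and none with INA, where 1885 probe sets had fallen with BLM and 57 with INA.

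The 6 falls that did not add included AT1G14960, of the Bet v 1-like major latex protein family. It measured 0.64, 0.99 and 1.05 in control, and between -0.47 and 0.26 on the 9 treated arrays, whose groups overlapped. The level was 0.519-fold with INA, 0.481-fold with BLM and 0.529-fold with both, and BLM+INA differed from BLM by 0.14 (SE 0.159) and from INA by 0.03 (SE 0.159) on the log2 scale. AT2G36885 was at 0.644-fold, 0.194-fold and 0.223-fold, against a product of 0.125. Both calls were marginal (1.08, adjusted p = 0.0444, and 0.83, adjusted p = 0.0486, in limma) and were lost in 10 of the 12 fits without 1 array. Centring each array ended the call of AT2G36885, as did quantile normalization.

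Of the 40 probe sets above the sum without a single paired gene, some had larger values than any named gene. The largest was 263539_at, which measured between -0.81 and 0.24 on the 9 arrays without both agents and 2.26, 1.87 and 2.90 with both (interaction 2.86, SE 0.383, limma adjusted p = 0.00138). The second, 251673_at, rose 1.34 on the log2 scale with INA, changed by -0.11 with BLM and rose 3.78 with both (interaction 2.55, SE 0.225, limma adjusted p = 3.02e-05). Over all tested probe sets, 254271_at had the smallest adjusted p in limma, 1.2e-06, with single changes of 0.33 and 0.20 and a change of 2.73 with both.

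Genes below the sum were mostly rises that were blunted, and the blunting took 2 forms. In one, a rise with BLM was smaller when INA was present. In the other, each agent alone raised the gene and both together gave less than the product of the folds. Of the 18, 16 were raised by BLM and 6 by INA, all 6 of the latter by both single agents. With both agents 13 were lower than with BLM alone and 3 were higher. In 3 the BLM+INA arrays lay below the 9 others.

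SAG29, the sugar transporter SWEET15 that is known as a senescence marker, rose with BLM and was near the level of control with both. It measured -0.06, -0.08 and 0.18 in control, -0.47, -0.82 and -0.54 with INA, 1.41, 1.43 and 1.51 with BLM, and 0.06, 0.12 and -0.15 with both. INA lay below control, BLM far above it, and BLM+INA overlapped control. The BLM+INA arrays still lay above those with INA alone, so the rise with BLM was smaller with INA present and not absent. The folds were 0.649, 2.7 and 0.996. The interaction was -0.81 (SE 0.163, limma adjusted p = 0.0354), and the call was lost in 9 of the 12 fits without 1 array, with values from -0.92 to -0.73.

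AT3G12900 encodes scopoletin 8-hydroxylase, which makes the iron-mobilising coumarin fraxetin. It measured -1.58, -1.43 and -1.05 in control, -0.71, -1.05 and -0.87 with INA, 1.56, 1.58 and 1.56 with BLM, and 1.0, 0.72 and 0.71 with both. BLM arrays were the highest and the BLM+INA arrays lay between BLM and INA, so the 7.54-fold rise with BLM became 4.47-fold with both, against a product of 10.4. Its interaction was -1.22 (SE 0.187, limma adjusted p = 0.00411). AT1G03990, of the long-chain alcohol oxidase family, rose 2.26-fold with BLM and 1.54-fold with both (interaction -0.89, SE 0.16, limma adjusted p = 0.013). AT3G57780 rose 1.52-fold with BLM and was at 0.842-fold with both, where its change was not called (interaction -0.76, SE 0.153, limma adjusted p = 0.0363). This last call was lost in 10 of the 12 fits without 1 array, between -0.86 and -0.68, and after quantile normalization.

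AT5G57760 crossed the level of control. It measured 0.10, -0.21 and -0.02 in control, 0.40, -0.14 and 0.02 with INA, 0.90, 0.52 and 0.46 with BLM, and -0.24, -0.94 and -0.64 with both. BLM arrays were all above and BLM+INA arrays all below the other groups. The fold was 1.59 with BLM and 0.675 with both, each past the threshold against control, and the interaction was -1.37 (SE 0.241, limma adjusted p = 0.0126).

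The second form held genes with the largest single responses. AT5G03350, a legume lectin family protein, measured -3.65, -3.69 and -3.51 in control, 1.37, 1.23 and 1.37 with INA, -1.92, -1.62 and -1.23 with BLM, and 2.23, 2.19 and 2.29 with both. The 4 groups were ordered without overlap, and BLM+INA was the highest. Its folds were 30.6 with INA, 4.07 with BLM and 57.8 with both, against a product of 125, so the interaction was -1.11 (SE 0.189, limma adjusted p = 0.0102). Here the direction depended on the scale. On the linear scale, where single changes add as signal, both agents gave 24.1 control units more than the sum. The linear fit called AT5G03350 above the sum, at 1.96 in units of the probe set's median signal over the 12 arrays.

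AT2G25510 measured -2.86, -2.41 and -2.27 in control, 1.04, 0.90 and 0.71 with INA, -1.23, -0.93 and -0.71 with BLM, and 0.86, 1.01 and 1.35 with both. The INA and BLM+INA arrays overlapped, and BLM lay between them and control. Folds of 10.6 and 2.94 gave 12.0 with both, against a product of 31.1 (interaction -1.37, SE 0.232, limma adjusted p = 0.00968), and the linear fit made no call for AT2G25510. AT5G38820, of the amino acid transporter family, was raised 1.49-fold by INA, 2.33-fold by BLM and 1.73-fold by both. Its BLM+INA arrays (0.23, 0.01 and -0.01) lay below the BLM arrays (0.48, 0.67 and 0.38) and overlapped those with INA (0.08, -0.24 and -0.25). The interaction was -1.01 (SE 0.168, limma adjusted p = 0.0092). AT3G18560, the exception to the shapes, was at 1.41-fold, 2.21-fold and 1.66-fold, and its call (-0.91, SE 0.181, limma adjusted p = 0.0332) was lost in 10 of the 12 fits and after quantile normalization.

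**Figure D4:**
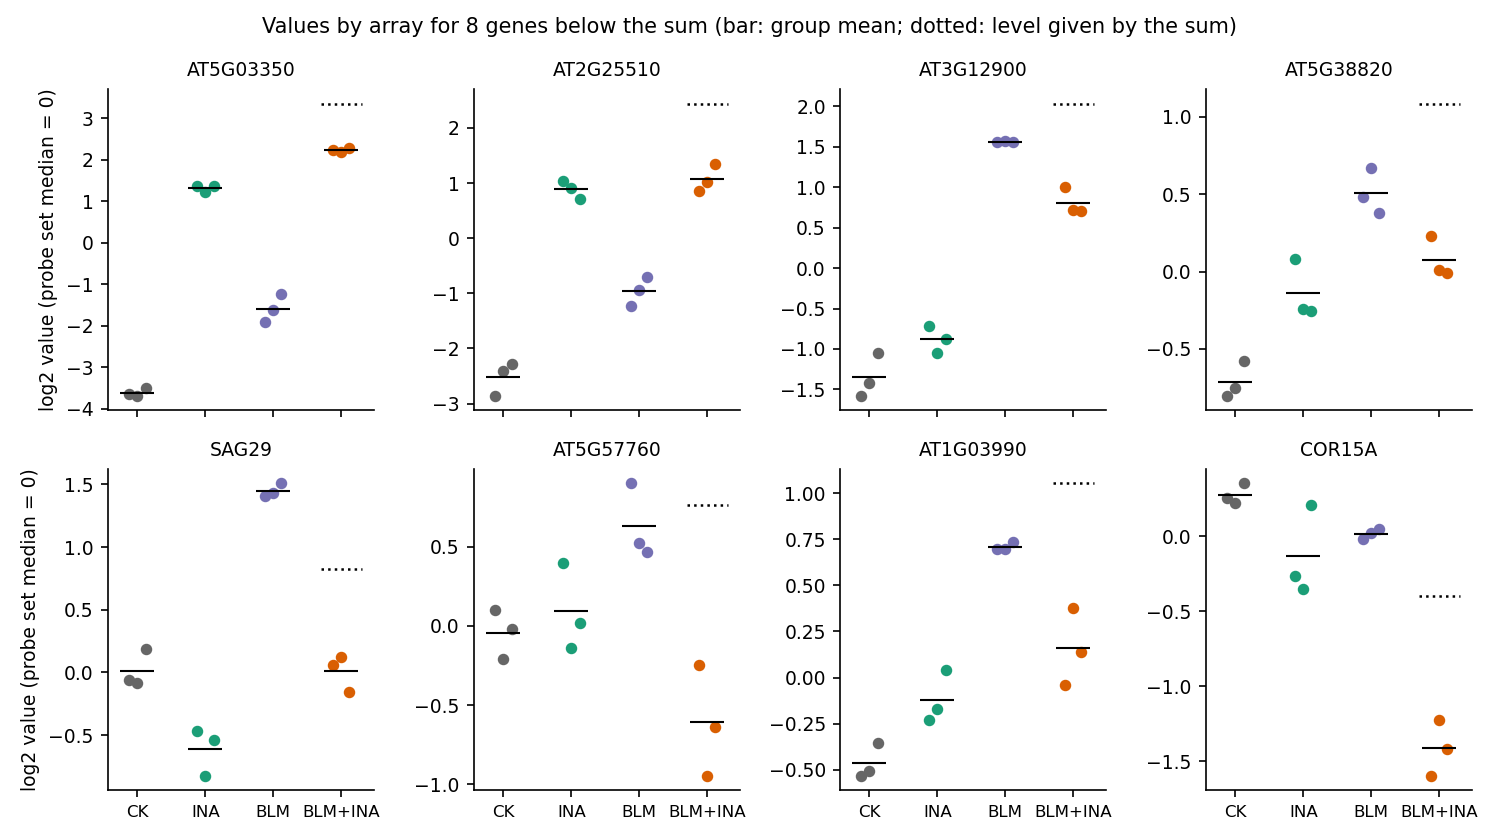
Log2 values of the 12 arrays on the y axis, by group on the x axis, for 8 genes below the sum; each point is an array, the solid bar is the group mean, and the dotted bar is the level that the sum of the single changes gives for BLM+INA. The BLM+INA arrays lie below the dotted bar in all 8, and for AT5G57760 and COR15A they also lie below the 9 other arrays.

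COR15A, a chloroplast protein that protects membranes in cold and dehydration, was the only named gene lowered by both agents and by neither alone. It measured 0.26, 0.22 and 0.35 in control, -0.26, -0.35 and 0.21 with INA, -0.02, 0.02 and 0.04 with BLM, and -1.60, -1.23 and -1.42 with both. The single-agent arrays lay just below control and the BLM+INA arrays far below all others. The folds were 0.751 with INA, 0.834 with BLM and 0.309 with both, against a product of 0.626. The interaction was -1.02 (SE 0.186, limma adjusted p = 0.0156), and the call was lost without CK replicate 2 (-0.99) or BLM+INA replicate 1 (-0.93). The linear fit made no call for COR15A. The other probe set of this shape, 260957_at, measured between -0.18 and 0.33 on the 9 arrays without both agents and -1.67, -1.42 and -1.30 with both (interaction -1.40, SE 0.18, limma adjusted p = 0.000961). Of 1023 probe sets lowered by calls with both agents only, these were the 2 that were called below the sum.

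The furthest below the sum was 256766_at, which is not in the gene table. It measured -6.14, -5.74 and -5.56 in control, 2.41, 2.10 and 2.09 with INA, -3.91, -2.09 and -2.23 with BLM, and 2.50, 2.37 and 2.43 with both. INA and both agents gave nearly the same level, with BLM between them and control. Its change was 8.01 with INA, 3.07 with BLM and 8.25 with both on the log2 scale, and its interaction was -2.84 (SE 0.442, limma adjusted p = 0.00511). Like AT5G03350 it had a positive excess on the linear scale, 38.0 control units. Its signal class, like that of AT5G03350, AT2G25510, AT3G12900 and COR15A, was the top one. The class leaves out the lowest arrays of each probe set. For all of these but COR15A it leaves out the control arrays, so it does not give their signal in control. The top class held 38.9% of the 18 below the sum, 15.9% of the 69 above and 19.0% of all tested. The part of a high signal in the result was not tested.

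**Figure D5:**
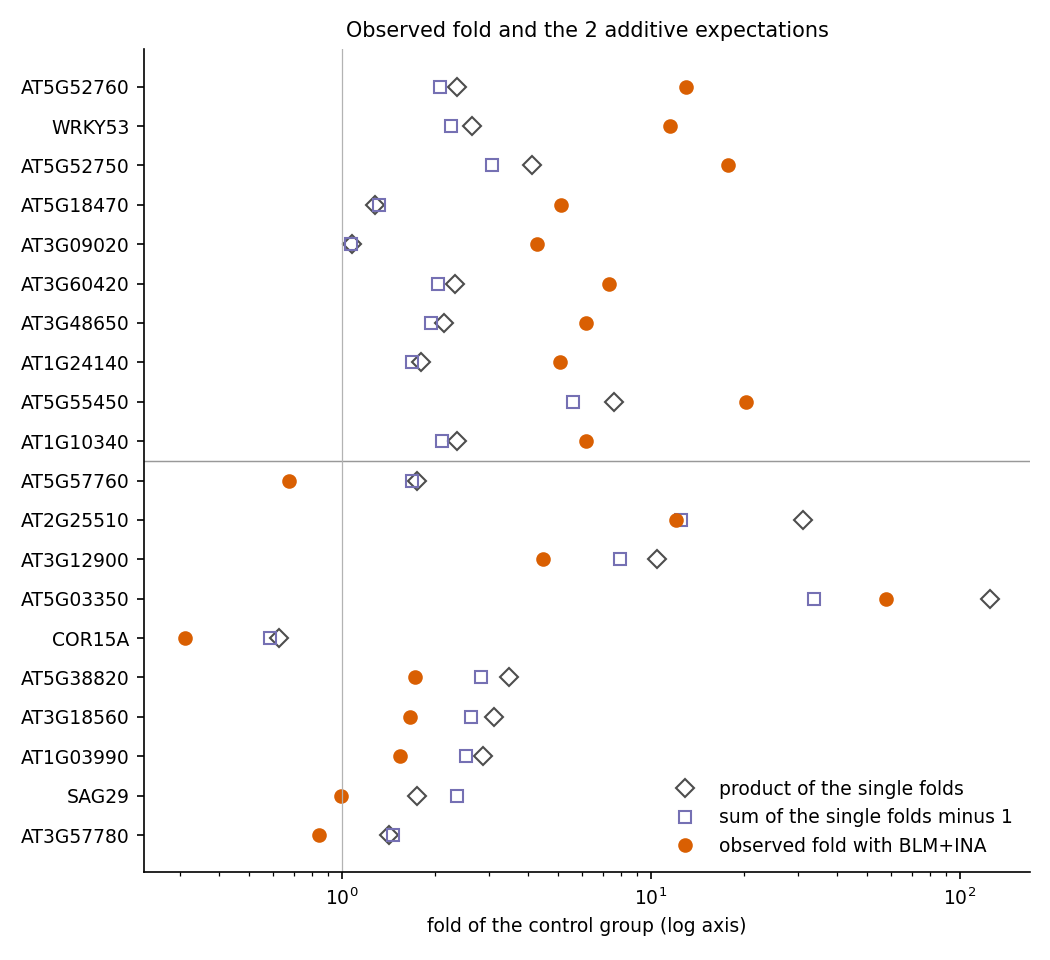
For the 10 named genes below the sum and the 10 with the largest interactions above it, the x axis (log scale) gives the fold of control observed with BLM+INA (filled), the product of the single folds (open diamonds) and the sum of the single folds minus 1 (open squares). The observed fold exceeds both expectations in the 10 upper genes, and AT5G03350 (57.8, against 125 for the product) is the only lower gene that lies well above its linear expectation.

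The linear scale gave more calls. All 69 above the sum had a positive excess on the linear scale too, and 65 of them were among the 185 that the linear fit called above. Where both single changes had the same sign, a level above the product is above the linear sum by arithmetic. The count of 69 is therefore no test of whether the direction depends on the scale. Of the 18 below, 16 had a negative linear excess and 13 were among the 50 that the linear fit called below.

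Some arrays were often the highest of their group in the calls above the sum. INA replicate 3 was the highest INA array in 46 of the 69 (66.7%), against 29.9% of all tested probe sets. BLM replicate 3 was the highest BLM array in 52.2% against 27.2%, and CK replicate 3 the highest control array in 49.3% against 39.2%. Without INA replicate 3, 85 probe sets were called above the sum, of which 61 were among the 69. The largest interaction that missed the threshold was 3.41, that of 266385_at (limma adjusted p = 0.113), whose INA arrays measured -0.15, 0.04 and 3.34.

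The genes of pathways were covered only in part, since 45 of 233 listed genes had a probe set of their own in the gene table. Of 5 measured salicylic acid and systemic acquired resistance genes of 39 listed, 1 (WRKY53) lay above the sum and 0 below. The median over the 5 was 0.48, against -0.02 over all tested. GRX480, a glutaredoxin that binds TGA factors, had 0.48 (SE 0.189) and SAG101, a partner of EDS1 in immune signalling, 0.52 (SE 0.245). Their adjusted p values in limma were 0.548 and 0.665. UGT76B1, which glucosylates the hormone, had 0.13 (SE 0.199).

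Genes of protein folding in the endoplasmic reticulum had 0 of 7 called (28 listed), with a median of 0.23. The largest was BZIP60, a transcription factor of the folding stress response, at 0.64 (SE 0.163, limma adjusted p = 0.142). It would have been called without INA replicate 3 (0.75) and on the linear scale. ATERDJ3B, a co-chaperone, had 0.41 (SE 0.143) with an adjusted p of 0.43 in limma. Pattern-triggered immunity genes had 0 of 6 called (23 listed) with a median of 0.18, and the ubiquitin ligases PUB24 and PUB23 lay on opposite sides, at 0.55 (SE 0.185) and -0.55 (SE 0.207). The jasmonate and ethylene list had 0 of 2 called (20 listed), the defensins PDF1.2b at 0.91 (SE 0.366) and PDF1.2 at 0.54 (SE 0.37). Their adjusted p values in limma were 0.563 and 0.803. PDF1.2b passed only without CK replicate 1 (1.31), and its values without 1 array ran from 0.48 to 1.31. The control arrays were spread widely, at -0.23, 1.41 and 0.51 for PDF1.2b and -0.02, 1.55 and 0.29 for PDF1.2.

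All 5 measured anthocyanin genes of 16 listed lay below 0, with a median of -0.59, and 0 passed the threshold. At an unadjusted p under 0.05, 4 of the 5 lay below, against 3.80% of all tested. Such counts above the sum, against 3.66% of all tested, were 3 of 5 for the salicylic acid list, 3 of 7 for endoplasmic reticulum folding, 2 of 6 for pattern-triggered immunity, 1 of 2 for jasmonate and ethylene, 4 of 9 for peroxidases, 3 of 11 for RING or U-box ligases and 3 of 24 for cytochromes P450. Below the sum they were 2 of 5 for abscisic acid and cold and 5 of 52 for UDP-glycosyltransferases, and the other lists and families had at most 1 in either direction. These counts are descriptions without a test, since the lists were chosen with earlier results of these data known. Some genes, such as PUB24 and UF3GT, counted both in a list and in a family. UF3GT, an anthocyanin glycosyltransferase, changed by -0.49 on the log2 scale when INA was given, 2.15 for BLM and 0.85 for the combination. Its interaction was -0.81 (SE 0.228, limma adjusted p = 0.209). AT4G14090, which encodes an anthocyanin glucosyltransferase, had -0.66 (SE 0.211) with an adjusted p of 0.34 in limma. Both passed on the linear scale, and UF3GT also without BLM+INA replicate 2 (-1.02). DFR, the dihydroflavonol reductase of the pathway, changed by -0.99 under INA, 3.50 under BLM and 2.12 under the combination, with an interaction of -0.39 (SE 0.212, limma adjusted p = 0.733).

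Abscisic acid, cold and dehydration genes had 1 of 5 called below (26 listed) and 0 above, with a median of -0.28. The called gene was COR15A, and its homologue COR15B had -0.44 (SE 0.195). STZ, a zinc finger repressor of stress responses, lay the other way at 0.99 (SE 0.485). DNA damage genes had 0 of 4 called (28 listed) with a median of -0.12, where RAD5 had -0.40 (SE 0.188) and the ligase gene ATLIG4 0.10 (SE 0.148). Mitosis genes had 0 of 4 called (22 listed) with a median of 0.03, photosynthesis genes 0 of 4 (21 listed) with -0.04 and root genes 0 of 3 (10 listed) with 0.08. AUR2, an Aurora kinase of dividing cells, changed by -1.50 with BLM and -1.35 with both (interaction 0.19, SE 0.207, limma adjusted p = 0.90).

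Families were found by words in gene symbols and synonyms, so they too are partial, and the search missed called genes known by locus only, such as the EF-hand genes AT3G47480 and AT3G01830, the lectins AT5G18470 and AT5G03350, the heavy-metal-domain genes AT5G52760 and AT5G52750, and the ankyrin genes AT1G10340 and AT4G11000. Among 7 WRKY genes WRKY53 was the only one called, and the other 6 contributed to a family median of 0.03. Of 24 cytochrome P450 genes 1 was called above, CYP71B23, and the median was -0.02. Among the genes the words found, 0 of 9 calmodulin or EF-hand genes, 13 glutathione transferases, 52 UDP-glycosyltransferases, 9 peroxidases, 11 RING or U-box ligases, 5 lectins and 1 gene each for heavy metal and ankyrin were called, with medians from -0.17 to 0.31. CML38, a calmodulin-like protein, had the largest value of its family at 0.73, and passed without BLM replicate 1 (0.87) and on the linear scale.

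Calls that held in all 12 fits without 1 array numbered 38 of the 69 above and 13 of the 18 below. Of the 34 called genes named by the rule, 18 held: AT5G52760, WRKY53, AT5G52750, AT5G18470, AT3G09020, AT3G48650, AT1G24140, AT1G10340, AT2G24160, GLR1.4, AT1G66880 and AT5G55420 above the sum, and AT5G57760, AT2G25510, AT3G12900, AT5G03350, AT5G38820 and AT1G03990 below it.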

How the data were processed

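Total RNA of the seedlings was amplified, labelled with biotin and hybridised to 1-colour arrays, 1 per sample, and the series' design text calls the 3 replicates of a group biological. The authors deposited log2 values made with RMA, per the submitters' processing notes, whose version is not given in the sources used here; base 2 is that of RMA. In the deposited log2 values the median of each probe set over the 12 arrays is 0 within 5e-07, so the levels are lost. Classes of signal (2 to 4, 4 to 8, 8 or over) were inferred from how finely the stored values are spaced, which failed for 1478 probe sets. The lowest arrays of each probe set were left out of this step, so a class describes the higher arrays. The number of arrays limits the precision.

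A linear model with a mean for each group was fitted to the 12 arrays in limma 3.58.1 under R 4.3.3, with 8 residual and 8.82 prior degrees of freedom. Tests were two-sided, and p values were adjusted per contrast over 22746 probe sets. Folds are 2 to the power of differences of log2 means. Shapes are defined by the calls against control and, for blunted rises, by those of BLM+INA against each single agent. The gene table paired 13513 probe sets with 1 gene, of which 77 lacked a RefSeq match, and 503 with several; 8730 were not in it. Named genes were, among calls with 1 gene, the 20 largest in each direction, the 4 largest of each shape, and up to 4 called or else 2 members of each list or family. Members and lists were chosen with earlier results of these data known. Planned counts of promoter motifs were not run, since no promoter sequences were used here, and families rest on symbols because no gene descriptions were used; 3 families had no measured gene. The interaction test was run on simulated data with independent noise on each array. The simulation therefore leaves out the deviations that replicate 3 arrays share. Alternatives were array centring, quantile normalization, array weights, robust or unmoderated variances, a block for the replicate number, no low-signal probe sets, probe sets with 1 gene, the linear scale, a threshold of 0.01, a minimum of 1 and each array left out. Python 3.11.15 with matplotlib 3.10.9 made the plots.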

Additional observations from a re-analysis of the deposited data

Results flagged for a closer look

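In 7 probe sets past the interaction threshold, the effect of 1 agent changed direction with the presence of the other, each effect being past its own threshold. Most were not in the gene table, so they are given by probe set name. In 4 of them BLM lowered the level without INA and raised it with INA, with interactions of 1.12 for 247604_at, 1.10 for 259272_at, 1.06 for 265067_at and 0.96 for 265161_at (adjusted p from 0.00195 to 0.013 in limma). The clearest was 247604_at, which measured -0.46, -0.43 and -0.26 in control, 0.41, 0.26 and 0.53 with INA, -1.13, -1.12 and -0.85 with BLM, and 1.01, 0.78 and 0.83 with both. BLM arrays lay below control and BLM+INA arrays above INA, with no overlap between any of the 4 groups. In AT5G57760 the order was the opposite, since BLM raised it without INA and lowered it with INA, with an interaction of -1.37. The effect of INA turned in AT5G38820 (-1.01) and 254550_at (-1.34), which INA raised without BLM and lowered with it.

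A signal outside the tested probe sets also stood apart. One of the 64 control probe sets, with a thale cress target, measured -0.67, -0.56 and -0.65 in control, 0.36, 0.21 and 0.09 with INA, -0.43, -0.13 and -0.09 with BLM, and 3.12, 2.84 and 2.88 with both. Its BLM+INA arrays lay far above all others, and its interaction was 2.32 (SE 0.162 from the spread of this probe set alone), while the other 63 lay between -0.396 and 0.184. It was not part of the fit and has no adjusted p.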

How the results depend on the processing

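Against 69 above and 18 below the sum, quantile normalization gave 26 above (22 of them among the 69) and 6 raised only by both agents in place of 22. Unmoderated variances gave 2 and 0, with 735 and 885 at an unadjusted p under 0.05, probe sets with 1 gene only 28 and 10, a threshold of 0.01 gave 32 and 10 (12 raised only by both, 9 blunted rises in place of 15), and the linear scale 185 and 50. On the linear scale AT5G03350 turned to 1.96, in units of its median signal and not log2. Array centring (71 and 19), array weights (81 and 19), robust variances (69 and 17), no low-signal probe sets (49 and 17) and a minimum size of 1 (51 and 12) stayed within 1.5 times. Without 1 array the counts ran from 44 to 94 above, 14 to 30 below, 13 to 35 for those raised only by both and 12 to 25 for blunted rises; the cause of these shifts was not tested. Of 61 named genes, called or not, quantile normalization ended 17 calls, centring 1 and the linear scale 3, and the linear scale added 4.

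Equal replicate numbers were not taken as pairs, since deviations from group means correlated over 0.1 in only 10 of 18 same-numbered pairs. By number, the 6 correlations ran from 0.0532 to 0.221 for replicate 1, -0.0534 to 0.0796 for replicate 2 and 0.233 to 0.405 for replicate 3, and replicate 3 arrays correlated negatively with those of other numbers (-0.357 to -0.0388), so the replicate 3 arrays share deviations. Of 12 arrays, 7 correlated best on average with their own number. The replicate number as a block gave 129 above and 41 below, with 32 blunted rises, including all 69 and all 18, and added calls for BZIP60 and CML38.

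Centred values hide how far a signal lies above background, and 48 of 87 calls carry no single gene.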
